A study of Mus musculus with 4 samples.

Results

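The cardiac myosin heavy chain locus of the mouse comprises Myh6, Myh7 and Mirn208, and was followed here through the binding of TFIIB along it. The gene table of the series has 1 row for each of these 3 genes, out of 14469 genes in all. Every region whose gene names include one of them was taken as well, which gave 30 of the 20364 merged regions. The data come from chromatin immunoprecipitation and sequencing of whole hearts of C57BL/6 mice with an antibody to GTF2B, the protein called TFIIB. The 3 groups of 1 library each were the normal heart of the adult at 12 weeks, the heart at the same age after 4 days of transaortic coarctation (TAC), which constricts the aorta and overloads the left ventricle, and the postnatal heart at 1 to 2 days. The last library, of 4 in all, was input DNA. Per the labels, the mice subjected to TAC were male, and nothing states how many hearts went into a library. All animals shared the strain and carried no transgene or deletion named in the labels. Whole hearts hold cardiomyocytes with fibroblasts, endothelial cells and leukocytes, so a region cannot be placed in a cell type. All 7 cardiomyocyte markers had a region over the start (Tnnt2, Tnni3, Myl2, Myl3, Actc1, Ryr2 and Pln), none of 3 liver markers had a value in the gene table, and 3 of 4 fibroblast, 4 of 4 endothelial and 4 of 4 macrophage markers also had a region over the start. Of skeletal muscle markers 2 of 5 had a region over the start (Acta1 and Ckm), and of neuron markers 0 of 3. Of all genes with a row, 75.6% had the start inside a region, so these counts do not show which cell types were present.

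No code that heads a library's columns could be matched to a sample, so adult, TAC and neonatal hearts were not compared. The TFIIB values below come from, or were computed from, columns of the authors' tables that cover all ChIP libraries together. With 1 library per group there is no replicate error and no test. The total number of reads per library is unknown from the tables.

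Myosin heavy chains are the motor proteins of the thick filament, and the rate at which they hydrolyse ATP sets how fast heart muscle contracts. Myh6 encodes the fast alpha chain, which dominates the adult mouse ventricle, and Myh7 encodes the slower beta chain, which dominates before birth and returns under pressure overload. The pair lies head to tail on the minus strand, and thyroid hormone favours the alpha over the beta chain. Mirn208, now Mir208a, is a microRNA within an intron of Myh6, made from the transcript of its host, and in the mouse it promotes expression of the beta chain under stress. TFIIB joins TATA-binding protein at the core promoter and recruits RNA polymerase II, so its usual place is the start of a gene.

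The sequences shown here are promoter windows of Myh6 and Myh7 and mature microRNAs. All 3 members matched a RefSeq gene of build GRCm38.p6 by gene ID. The mature microRNAs are shown because the relatives of miR-208a lie in introns of other myosin genes, miR-208b in Myh7 and miR-499 in Myh7b, and capitals mark the seed, bases 2 to 8. The sequences of miR-208a-3p (chr14:54949072-54949093, minus strand), miR-208b-3p (chr14:54975710-54975731, minus strand) and miR-499-5p (chr2:155622893-155622913, plus strand) are as follows.
miR-208a-3p: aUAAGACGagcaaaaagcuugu
miR-208b-3p: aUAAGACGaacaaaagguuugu
miR-499-5p: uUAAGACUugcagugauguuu
The microRNAs of Myh6 and Myh7 have the same seed and differ at 3 of 22 bases, written from miR-208a-3p to miR-208b-3p and counted from 1 at the 5′ end as G10A, A16G and C18U. The seed of miR-499-5p differs from it at its last base, G8U. Of these microRNAs, miR-208a and miR-499 have a row in the gene table, and miR-208b was not analysed here.

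The promoters of Myh6 and Myh7 are shown because 3 intervals lay within 100 bp of the start of Myh6 and 1 within 100 bp of the start of Myh7. Each is a window of 300 bases, 250 before and 50 after the RefSeq start, on the minus strand of chromosome 14. The RefSeq gene model of Myh6 begins upstream of the start used for its window. RefSeq gives Myh7 a pair of starts that are 77 bp apart, of which the downstream one is printed. Capitals mark matches on either strand to a TATA box core (TATANA), an MCAT core (CATTCC), the element of TEAD factors, and a nuclear receptor half-site (AGGNCA), of the kind thyroid hormone receptors bind. The Myh6 window is chr14:54966558-54966857 and the Myh7 window is chr14:54994500-54994799, both in GRCm38.p6.
Myh6 promoter: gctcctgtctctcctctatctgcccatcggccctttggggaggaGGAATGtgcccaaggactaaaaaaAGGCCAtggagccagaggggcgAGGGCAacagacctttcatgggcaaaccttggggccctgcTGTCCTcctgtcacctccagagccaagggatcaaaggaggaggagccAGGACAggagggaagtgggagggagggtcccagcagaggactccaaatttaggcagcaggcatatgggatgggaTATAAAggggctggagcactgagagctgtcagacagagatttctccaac
Myh7 promoter: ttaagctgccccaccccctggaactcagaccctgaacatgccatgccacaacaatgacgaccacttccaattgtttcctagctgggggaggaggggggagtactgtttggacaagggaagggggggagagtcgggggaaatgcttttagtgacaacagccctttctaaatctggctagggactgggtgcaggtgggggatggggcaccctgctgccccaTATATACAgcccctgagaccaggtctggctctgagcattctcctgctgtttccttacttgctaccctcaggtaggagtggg
In the Myh6 window the TATA core ran from base 2 to base 7, counted from the start as base 1. The MCAT core began 206 bases before the start, and 4 half-sites began 182, 160, 120 and 73 bases before it. In the printed Myh7 window, overlapping TATA cores began 31 and 29 bases before the start, and the window of the upstream start held an MCAT core that began 201 bases before that start. No half-site matched in either Myh7 window. Of 32851 mouse promoters of this length, 24.7% held a TATA core, 14.7% an MCAT core and 57.2% a half-site, while 3.11% had a TATA core on the gene's strand that began 40 to 20 bases before the start. E-boxes (CANNTG, in 72.3% of promoters) and GATA cores (GATA, in 57.9%) were also searched on both strands. The Myh6 window held 1 E-box and 2 GATA cores, and the printed Myh7 window held 2 E-boxes and no GATA core. Neither held an exact match to a CArG box of SRF (in 1.63% of promoters) or a MEF2 site (in 3.19%). Sites with a mismatch were not counted here. The GATA core and the TATA core at the start of the Myh6 window overlap. These matches describe letters only, and the windows are in another genome build than the TFIIB regions. The starts of the windows were not matched to the starts from which the TFIIB intervals were measured. Motif distances therefore hold for the window starts only. Whether Myh6 has a TATA core 40 to 20 bases before the start used for its intervals was not analysed here.

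TFIIB regions filled much of the myosin locus. The 30 regions lay on chromosome 14 between 55556143 and 55624772 in the mm9 build, a span of 68.6 kb of which they covered 53.4%. Of the 30, 18 were centred in Myh6, 5 in Myh7, 1 between the genes, 4 upstream of Myh7 and 2 beyond the 3′ end of Myh6. None held a CpG island, which 10192 of the 20364 regions of the table do. Only 1 of the 30 was made of 2 or more called intervals, against 55.8% of all regions. The gene table names each interval for 1 library, so a region of 1 interval has a call named for 1 library. Which heart that was for each of the other 29 regions, and whether it was the same for all of them, was not analysed here. No other window of 50 kb in the table was as crowded. The fullest window of 50 kb here held the starts of 25 regions, the fullest elsewhere held 15, and the median over all regions was 2.

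**Figure D1:**
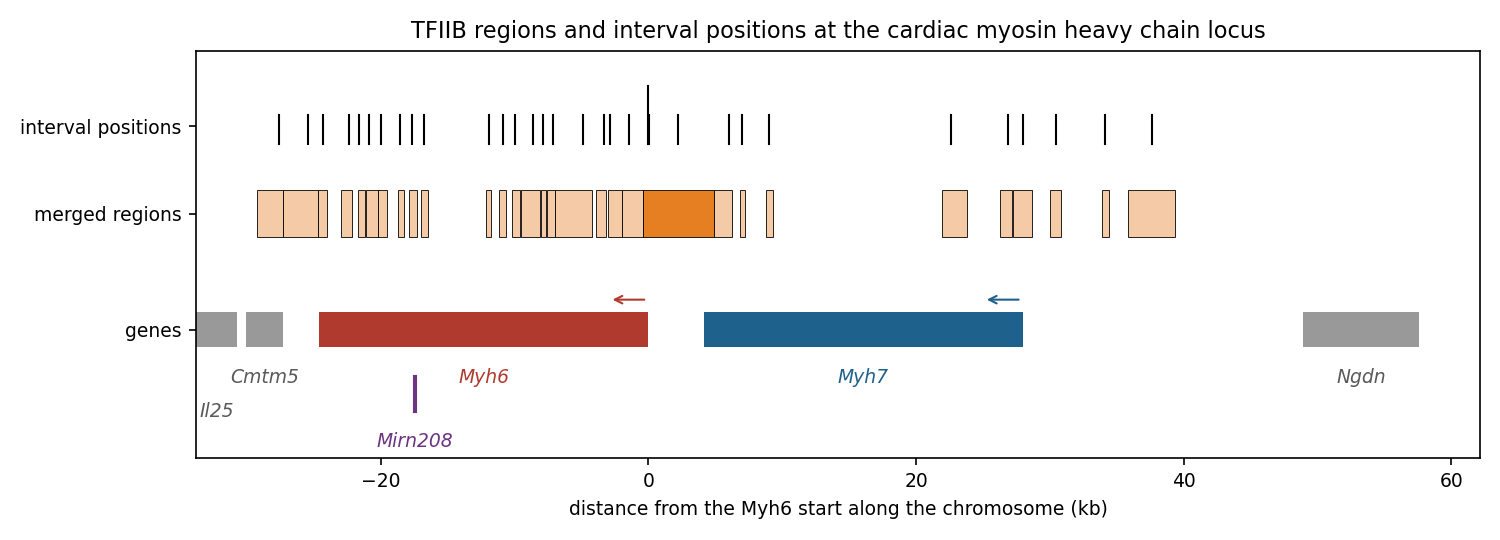
Map of the locus, with distance from the Myh6 start in kb along the chromosome on the horizontal axis. Boxes are the 30 merged regions (dark for the 1 region of 4 intervals), ticks are the 33 interval positions (a taller tick marks 2 intervals at 1 position), and bars are genes, with arrows for the direction of transcription and a line for Mirn208. Regions are spread from the start to the end of Myh6 and cover 63.7% of it, and the longest stretch without one is 4351 bp. They cluster at both ends of Myh7, with none in a 12.6 kb stretch inside Myh7.

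Myh6, the gene of the alpha chain (gene ID 17888, chromosome 14, 55560761 to 55585408), was assigned 24 regions of 27 intervals, where the median gene has 1 region and the 99th percentile is 7. Genes with 10 or more regions are 0.249% of all genes. Of the 24 regions, 18 were centred inside the gene, which is 24647 bp long. That is 0.73 regions per kb and the first rank among the 9534 genes of 10 kb or longer, whose median is 0.0155 and 99th percentile 0.178. Among 1773 genes of 20 to 30 kb, the median number of regions inside was 1 and the 99th percentile 4, and the highest count after Myh6 was 8, in Usp2, which encodes a deubiquitinase. Regions covered 15700 bp, or 63.7%, of Myh6. Only 0.0839% of genes of 10 kb or longer had 50% or more of their length in regions, and Myh6 ranked 3rd by this measure.

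The calls inside Myh6 extended from the start to the end of the gene. In 4 equal parts of the gene, counted from the start, 4, 6, 2 and 6 regions were centred in that order. The 20 intervals inside the gene stood at 19 positions with a median spacing of 976 bp and a range of 416 to 4880 bp. The widest spacing matches a stretch of 4351 bp without a region, from 55568921 to 55573272, about midway along the gene. A further 3 regions assigned to Myh6 were centred in Myh7, up to 9022 bp upstream of the Myh6 start, and the regions at the other end reached past the end of Myh6 to the small gene Cmtm5.

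**Figure D2:**
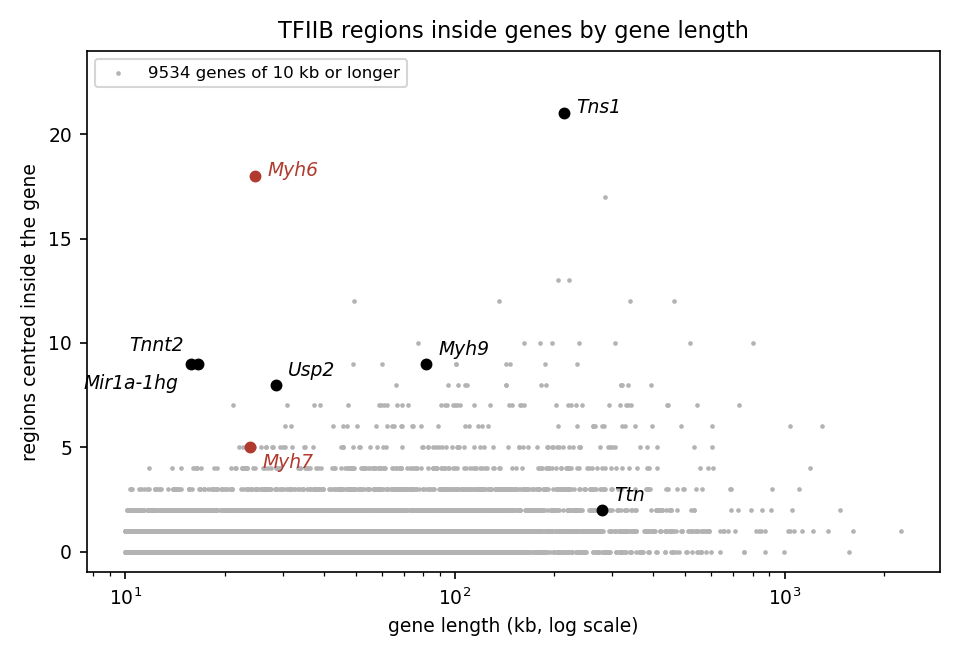
Regions centred inside each gene (vertical axis) against gene length in kb (horizontal log axis) for 9534 genes of 10 kb or longer, each point 1 gene. Myh6 holds 18 regions in 24.6 kb, above every other gene of 20 to 30 kb, and Myh7 holds 5, while Tns1 holds 21 in 214 kb.

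The start of Myh6 was the only place in the locus with calls from several intervals. The region over it ran from 55584978 to 55590292, a length of 5314 bp that exceeds 99.76% of all regions, and joined the start of Myh6 to the 3′ end of Myh7 across the 4117 bp between the genes. Its centre was 2227 bp upstream of the Myh6 start, so by the centre of the region Myh6 counts as having no region within 1000 bp of its start, unlike 76.5% of genes. The interval positions place the signal differently. Of its 4 intervals, 2 stood exactly at the annotated start of Myh6, 1 stood 32 bp upstream and 1 stood 2224 bp upstream, still between the genes. A start covered by a region although no region is centred within 1000 bp was found in 1.33% of genes, and 3 or more intervals within 100 bp of the start in 16.3%. By interval position, Myh6 therefore had TFIIB calls at its start, as 51.6% of genes do within 100 bp.

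Mirn208 (gene ID 387204, 55567896 to 55567978, 82 bp) was assigned 16 regions, all of them also Myh6 regions and each of 1 interval. It lies 17430 bp downstream of the Myh6 start. The whole hairpin sat inside a region of 591 bp from 55567534 to 55568125. The nearest interval position was 234 bp downstream of the start of the microRNA and the next 646 bp upstream. None thus lay within 100 bp, and both lay within 1000 bp. At least 1 interval lies within 1000 bp of the start in 77.6% of genes. The calls near Mirn208 are part of the series through Myh6 and cannot be told apart from signal of the host gene. Over 130 microRNA genes of the table the median was 1 region, and the highest counts after Mirn208 were 9, for Mirn1-1 and Mirn133a-2, a pair of muscle microRNAs from 1 host transcript.

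Myh7, the gene of the beta chain (gene ID 140781, 55589525 to 55613386), was assigned 14 regions of 17 intervals, 8 of them shared with Myh6. Its own body held less. Of 23861 bp, 6573 bp or 27.5% were covered, 5 regions were centred inside, and their density of 0.21 per kb ranked 42nd among genes of 10 kb or longer. In 4 equal parts from the start, Myh7 had 2, 0, 0 and 3 regions centred. No region lay between 55594700 and 55607312, a gap of 12.6 kb in the middle of the gene. The start of Myh7 lay inside a region of 1422 bp from 55612686 to 55614108, made of 1 interval positioned 10 bp into the gene. A region covers the start in 75.6% of genes. A further 3 regions of 1 interval each lay upstream of Myh7, with interval positions 2518, 6150 and 9686 bp before the start. The farthest was 3536 bp long, the longest region of 1 interval in the locus, and was shared with Ngdn.

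The peak values of the gene table allow the strongest signal to be placed in part of the locus. The peak value is the authors' highest value over all libraries and all regions assigned to a gene, on a scale that is not stated. It was 95 for Myh6, 95 for Myh7 and 28 for Mirn208, beside a median of 34 for all genes (quartiles 24 and 47). Myh6 and Myh7 thus stood above 95.9% of genes and Mirn208 above 33.9%. The 24 regions of Myh6 divide into the 16 it shares with Mirn208 and the 8 it shares with Myh7. None of the 16 can exceed 28, the value of Mirn208, so the value of 95 belongs to 1 of the 8 shared regions, which run from 55578446 in the 5′ part of Myh6 to 55594700 in the 3′ part of Myh7. The region shared with Ngdn, the neuroguidin gene, cannot exceed 42, the value of Ngdn. Over 3897 pairs of genes in which the regions of one are a subset of those of the other, the subset had a higher value in 0 pairs, as this reading requires. The regions over Mirn208, in the 3′ part of Myh6 and beyond its end thus had values of at most 28, and a value of 95 belonged to 1 of the regions from the 5′ part of Myh6 to the 3′ part of Myh7.

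**Figure D3:**
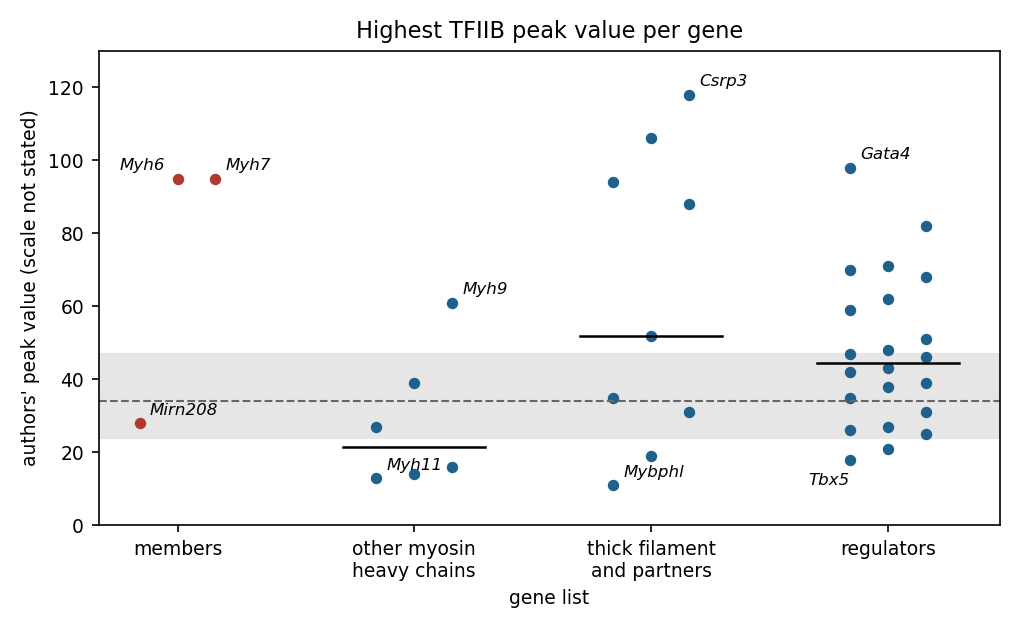
The authors' highest peak value per gene (vertical axis, scale not stated) for the members and for 3 gene lists (horizontal axis), each point 1 gene, with list medians as short lines, the median of all genes dashed and their interquartile range shaded. Myh6 and Myh7 share a value of 95, and the other myosin heavy chains run from 13 (Myh11) to 61 (Myh9).

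How many regions the locus has depends on where neighbouring calls were split. Of the 29 gaps between its regions, 12 (41.4%) were of at most 100 bp, against 3.87% of 9246 gaps between neighbouring regions of the same gene in the whole table. The median gap was 257 bp, against 8.76 kb for regions of the same gene. The shortest was 6 bp, between the region over the Myh6 start and its neighbour inside Myh6. Joining regions at gaps of up to 100 bp left Myh6 with 12, which ranks 7th, and joining at gaps of up to 1000 bp left it with 4, which ranks 341st. The locus then stood apart by length in place of number. With gaps of up to 1000 bp joined, 13 regions formed a stretch of 19.4 kb, from 55573272 in Myh6 to 55592648 in Myh7, the longest of 18739 in the table. With gaps of up to 100 bp joined, the longest stretch of the locus was 10.2 kb, 3rd of 19957, and covered the Myh6 start.

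**Figure D4:**
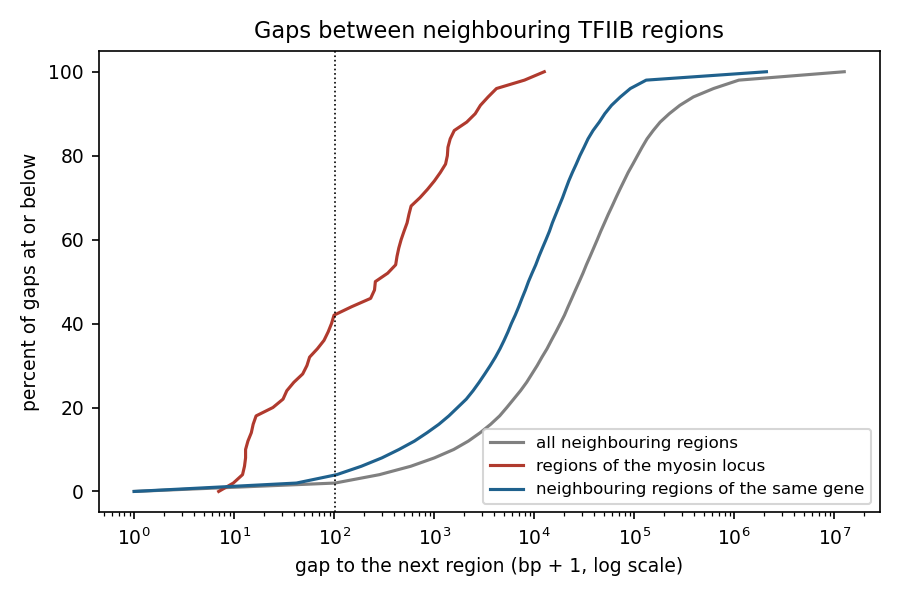
Cumulative percent of gaps (vertical axis) by gap size in bp plus 1 (horizontal log axis) for the 29 gaps of the locus, for 9246 gaps between neighbouring regions of the same gene and for all neighbouring regions. The dotted line marks 100 bp, at or below which lie 41.4% of the gaps of the locus and 3.87% of those of the same gene.

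**Figure D5:**
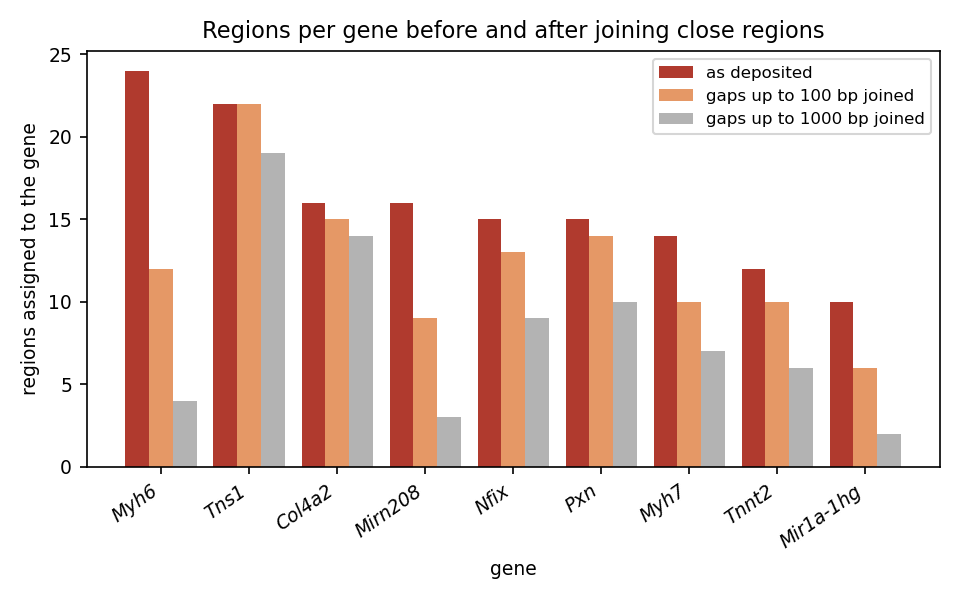
Regions assigned to each gene (vertical axis) as deposited and with gaps of up to 100 or 1000 bp joined, for the members and other genes (horizontal axis). Myh6 goes from 24 to 12 and 4 regions, and Tns1 from 22 to 22 and 19.

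Outside the locus, the 5 genes with the most regions were longer than Myh6 and less filled. The 5 genes with the most regions outside the locus were Tns1 with 22 regions in 214 kb, 2010111I01Rik with 17 in 285 kb, Col4a2 with 16 in 136 kb, and Nfix and Pxn with 15 each, and their coverage ran from 8.1% in 2010111I01Rik to 26.3% in Pxn, against 63.7% in Myh6. Tns1, the gene of a focal adhesion protein, kept 19 regions when gaps of up to 1000 bp were joined. By regions per kb inside the gene, and among genes of 10 kb or longer, those closest to Myh6 were Tnnt2, the cardiac troponin T gene (0.568 per kb, 58.7% covered), EG622283, now Mir1a-1hg, the host of Mirn1-1 and Mirn133a-2 (0.542 per kb, 79.4%), AI790298 (0.339), Gnai2 (0.33) and pPtp4a3 (0.29). This likeness is a measure over merged regions of 3 libraries.

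Single-interval calls in unbroken series set the locus beside Tnnt2. Over the 36 genes with 10 or more regions, a median of 60% of regions were made of 1 interval. The share was 23 of 24 (95.8%) for Myh6, 13 of 14 (92.9%) for Myh7 and 16 of 16 for Mirn208. It reached 90% or more in 8 of the 36 genes, which are the 3 members, Cmtm5, Tnnt2, EG622283, Col4a1 and Etv6. Counting neighbouring regions of 1 interval with gaps of at most 10 kb, the locus held an unbroken series of 20, from 55556143 to 55584972, and others of 6 and 3. The longest of 7424 series elsewhere had 10 regions and lay at Tnnt2 and its neighbours.

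The neighbours of the locus had far fewer regions except where they reach into it. Il25, the gene of a cytokine, was assigned 8 regions, of which 6 were regions of Myh6, and Cmtm5 was assigned 11, of which 9 were. Both had a peak value of 28. Most regions of these neighbours were thus also regions of Myh6. In 99.99% of the assigned pairs of a region and a gene, the gap between them was at most 10 kb. Ngdn shared 1 of its 2 regions. The genes farther out, Pabpn1, Efs, Zfhx2, Thtpa and Ap1g2, shared none, had 2 to 4 regions and had peak values of 19 to 38.

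Other myosin heavy chain genes were assigned fewer TFIIB regions than Myh6 and Myh7. Counted by regions centred inside the gene, Myh9 had 9 and Myh7 had 5. Of 12, 6 had a row in the gene table, with a median of 2 regions and a median peak value of 21.5, against 1 and 34 for all genes. Myh9, the nonmuscle myosin IIA gene, had 9 regions in 81526 bp and a peak value of 61, with 2 intervals within 100 bp of its start. Myh7b, the ancient relative that hosts miR-499, had 3 regions of 8 intervals and a peak value of 39, none at its start, and Mirn499 had 1 region. Myh10 had 2 regions with 27, Myh14 2 with 16, Myh11, the smooth muscle myosin gene, 1 with 13, and Myh13, an extraocular muscle myosin gene, 1 with 14, which lay beyond its 3′ end. The 6 without a row, Myh1, Myh2, Myh3, Myh4, Myh8 and Myh15, include the fast and developmental chains of skeletal muscle.

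Partner genes of the thick filament were assigned fewer regions than the members, and 4 of them had peak values of 88 to 118. By regions centred inside the gene per kb, Myl3 (0.491) and Myl2 (0.34) stood above Myh7 (0.21). The other partners with a row stood below Myh7 by this measure. Of 10, 9 had a row, with a median of 3 regions, at most 5, and a median peak value of 52. Csrp3, the gene of a LIM protein of the Z-disc, had 118, from regions near the gene of which none overlapped it, Ttn, the titin gene, 106, Myl3, for the ventricular essential light chain, 94, and Myl2, for its regulatory counterpart, 88. Myl2 and Myl3, both short genes, were covered over 96.9% and 60% of their length, with 3 intervals within 100 bp of each start, the same number as Myh6. Mybphl, an atrial relative of myosin binding protein C, was lowest at 11. Ttn had 2 regions in 278563 bp.

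Most genes known to control the myosin pair had a TFIIB region over the start, as do most genes of the table. Of 23, 22 had a row, 20 had the start inside a region and 11 had an interval within 100 bp of it, against 75.6% and 51.6% of all genes, so the second share was near that of all genes. Their median peak value was 44.5. Gata4, a zinc finger activator of both genes, had 98, Thra, the main thyroid hormone receptor gene of the heart, 68 with 6 regions, Mef2a 70, Tead1, whose protein binds the MCAT element, 38, Nkx2-5, a homeobox factor, 59, and Tbx5, a T-box factor, 18. Med13, a mediator subunit gene known as a target of miR-208a in the mouse, had 39, Sox6, a repressor gene that is also a known target, 27, and Purb, a repressor gene, 47.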

How the data were processed

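TFIIB was immunoprecipitated from whole hearts and sequenced on an Illumina instrument by a service company, per the labels' protocols, and the submitters' processing notes name build mm9. For the aligner, interval caller, thresholds, handling of reads that fit more than 1 place, and use of the input, nothing is given in the sources used here. Myh6 and Myh7 are similar in coding sequence, so reads may have been split or lost between them.

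Per the file headers, the authors deposited counts of intervals, CpG islands, promoters and genes per merged region, and for each gene its regions, its intervals and a peak value, a signal of unstated scale. Positions and lengths in bp were deposited with them, and the position of an interval is the one the gene table gives. The 15 columns of single libraries match no sample label and were not used, nor were the library names in other columns, beyond the fact that each interval carries 1. They were seen when the tables were opened.

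With Python 3.11.15, pandas 2.3.3 and numpy 2.4.6, regions were matched to genes by exact name, and density and coverage were computed over all regions (tested on simulated data). A region was counted inside a gene by its centre. Named genes are the members, genes sharing a region, 4 neighbours on each side, the 5 genes with most regions, the 5 with most per kb, and lists of myosins, thick filament genes and regulators. Usp2, Mirn1-1, Mirn133a-2, Cmtm5, Col4a1 and Etv6 were also named from their values. The members, lists and motifs were chosen with earlier results of these data known, and interval positions, joining of regions, series and stretches were chosen after the data were seen. Gene IDs were looked up in the RefSeq table of GRCm38.p6, used for names and sequences only.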

Additional observations from a re-analysis of the deposited data

How the results depend on the processing

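The number of regions per member changed with the rule that counts them. Myh6 kept 19 regions counted by overlap with the gene and 18 counted by centre in or within 1000 bp of it, but 12 or 4 with gaps of up to 100 or 1000 bp joined. Myh7 had 7 by overlap, 6 by centre and 7 with gaps of up to 1000 bp joined. Mirn208 had 1 by overlap, 2 by centre, and 9 or 3 with gaps joined. Myh6 ranked first per kb also among genes of 20 kb or longer and 3rd by covered length. Myh7 ranked 9th per kb among genes of 20 kb or longer and 65th by covered length. For the start of Myh6, 0 regions were centred within 1000 bp, 4 within 5000 bp, 1 contained the start, and 3 intervals lay within 1000 bp and 3 within 100 bp. For Myh7, 3 regions were centred within 5000 bp. For Mirn208, 2 were centred within 1000 bp, 1 within 500 bp and 6 within 5000 bp, 1 contained the start, and 0 intervals lay within 100 bp. With 1 mismatch allowed, 5 of the 7 motifs matched the window of the upstream Myh7 start and 4 that of the downstream start. The causes follow from each rule's construction. In all, 20 of 43 alternative values stayed within 1.5 times the reported one and 23 did not. Comparisons of TAC and neonate with adult, and of the Myh6 and Myh7 proteins, were planned and not run, the first because no column matches a label, the second because protein sequences were not used here. No paired analysis was possible because each group has 1 library. Depth per library is unknown, so no count of reads stands behind any value, and the absence of a region in the middle of Myh7 shows only that none was called there.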

Other observations

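Among genes of 10 kb or longer, next to Myh6 and Tnnt2 in regions per kb was the host of a pair of muscle microRNAs. EG622283, now Mir1a-1hg (chromosome 2, 180119895 to 180136507, plus strand), was assigned 10 regions, 9 of them of 1 interval and none with a CpG island, had a peak value of 131 and was covered over 79.4% of its 16.6 kb. Its microRNA Mirn133a-2 had 9 regions, each of 1 interval, with a peak value of 33, and Mirn1-1 had 9 regions with a peak value of 131. Tnnt2 (chromosome 1, 137732982 to 137748837) was assigned 12 regions, 11 of them of 1 interval and none with a CpG island, with 3 intervals within 100 bp of its start and a peak value of 110.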
